A study of Saccharomyces cerevisiae with 12 samples.

Results

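The loci on mitochondrial DNA (mtDNA) of budding yeast were examined in cultures exposed to 3 tetracycline antibiotics. They are the 55 rows, of 7080 in each deposited table, whose position lies on the chromosome named Mito, and no expression value was used to choose them. By annotation they are 7 genes for subunits of the respiratory complexes, VAR1, 2 rRNAs, 24 tRNAs, 10 open reading frames (ORFs) in or derived from introns, RPM1 and 10 other ORFs. The study grew *Saccharomyces cerevisiae* in YPD with tetracycline (Tet), doxycycline (Dox) or 4-epidoxycycline (4-ED), each at 1.5 µg/ml, or in YPD alone (Control), with 3 cultures per group and 12 in all. All 4 groups share 1 strain, named BY4741 in the labels and R1158, a BY4741 derivative that carries the tetracycline-controlled transactivator tTA driven by the CMV promoter, in the methods, so the Control cultures hold the transactivator too. The cultures were harvested at a matched optical density, which the cultures with a tetracycline took longer to reach, so drug and slower growth cannot be told apart. Libraries were selected for mRNA, and each table gives 1 pooled expression value per group as FPKM, a fragment count scaled for transcript length and for the mapped reads of the library, with no value per culture. No spread between cultures can therefore be given, no difference below was tested, and the number of fragments behind a locus is unknown. In bulk RNA, a change in the number of mtDNA copies or mitochondria per cell cannot be told apart from a change in RNA per copy.

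Yeast mtDNA is transcribed by the RNA polymerase RPO41 with its factor MTF1 from short promoters into long precursors, from which tRNAs are cut out and mRNAs and rRNAs are trimmed. Most mitochondrial mRNAs end at a short conserved sequence near their 3′ end, and they carry no long poly(A) tail, unlike nuclear mRNAs. The proteins encoded on mtDNA are core subunits of cytochrome bc1 complex, cytochrome c oxidase and ATP synthase, together with the ribosomal protein VAR1. They are made by mitochondrial ribosomes, which resemble those of bacteria, the ribosomes that tetracyclines are known to bind.

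The signals that bound these transcripts were read from the RefSeq sequence of mtDNA (assembly R64, 85779 bp), whose genes have the same start and end as the tables in 29 of the 29 rows that could be compared. The promoter motif ATATAAGTA was searched on both strands and occurred at 11 places on the plus strand and 3 on the minus strand. It lay within 600 bases before 5 of 11 genes examined (15S rRNA, 21S rRNA, COX1, OLI1 and RPM1), and 7.04% of all windows of 600 bases on the plus strand held it. For 3 of them the motif is shown in capitals with its flanks, because 2 are the rRNAs and OLI1 had the highest level of all mtDNA loci. They lie at chrM:6452-6481, chrM:57990-58019 and chrM:46139-46168 (R64, plus strand).
15S rRNA: atttattattATATAAGTAataaataatag
21S rRNA: attattatatATATAAGTAgtaaaaagtag
OLI1: atacacatttATATAAGTAtatatatatat
The motif ended 1 base before the start of 21S rRNA, 76 bases before 15S rRNA and 566 bases before OLI1.

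A motif at the other end was sought by counting every run of 12 bases in the 600 bases after the stop codon, and its last 12 bases, of 10 protein genes. Runs that occur at more than 20 places on the plus strand were left out. The run held by most genes was AATAATATTCTT, found in the windows of 8 of the 10, and the next was found in those of 6. It occurred at 9 places on the plus strand and 2 on the minus strand, and 6.35% of all windows of 612 bases held it. Because the run was picked as the one in most of these gene windows, 8 of 10 cannot be compared with that share. Its letters are those of the known 3′ end signal of yeast mitochondrial mRNAs. It is shown in capitals for genes that the results below set side by side, at chrM:26761-26790 (COX1), chrM:43736-43765 (COB), chrM:50668-50697 (VAR1), chrM:61716-61745 (SCEI), chrM:74567-74596 (COX2) and chrM:80114-80143 (COX3), all on the plus strand of R64.
COX1: taatataatAATAATATTCTTataaaaata
COB: taatactttAATAATATTCTTaaaaataat
VAR1: aataaataaAATAATATTCTTaatttttat
SCEI: cttttttaaAATAATATTCTTatttttatt
COX2: aataattatAATAATATTCTTaaatataat
COX3: tattattatAATAATATTCTTacaaatata
The motif began 63 to 101 bases after the stop codon of COX1, COB, COX2 and COX3, and 580 bases after that of VAR1. In SCEI it began at position 61725, before the coding sequence ends at 61729, and so overlaps it. No exact match lay in the windows of OLI1 and ATP8.

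With 4-ED, 25 of the 26 mtDNA loci that had a value above 0 in every group were higher than in Control, and VAR1 was the exception. These 26 rows lie in 14 merged spans of overlapping rows, with 7 rows in the COX1 span and 4 in the COB span. Counts over the 26 loci, here and below, are therefore not counts of independent units. The median log2 ratio of treated to Control FPKM over these 26 loci was 0.76 with 4-ED, against −0.01 over the nuclear loci of the same table. The medians were closer to 0 with Tet, 0.26 (nuclear loci 0.08), and with Dox, 0.10 (nuclear loci −0.03), and 18 of 26 loci were higher than Control with each. Of all loci with a ratio, 64.1% were higher than Control with Tet, 44.95% with Dox and 47.8% with 4-ED. These ratios share the Control cultures, which Cuffdiff scaled again in each table.

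Counted by size, 10 of the 26 loci were at least 2-fold higher with 4-ED, beside 2.28% of all loci, and 0 were 2-fold lower, beside 0.765%. Of these 10, BI2, BI3, Q0182 and Q0255 were not past 2-fold with a pseudocount of 1 FPKM. At 1.5-fold the counts with 4-ED were 18 higher, beside 5.97% of all loci, and 0 lower, beside 2.67%. With Tet, 1 mtDNA locus was 2-fold higher (1.29% of all loci) and 1 was 2-fold lower (0.78%), and at 1.5-fold 2 were higher (4.44%) and 1 lower (1.93%). With Dox, 0 were 2-fold higher (0.93% of all loci) or lower (1.2%), and at 1.5-fold 1 was higher (2.44%) and 0 lower (3.67%). The other 29 rows had a value of 0 in at least 1 group and have no ratio in all 3 tables.

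**Figure D1:**
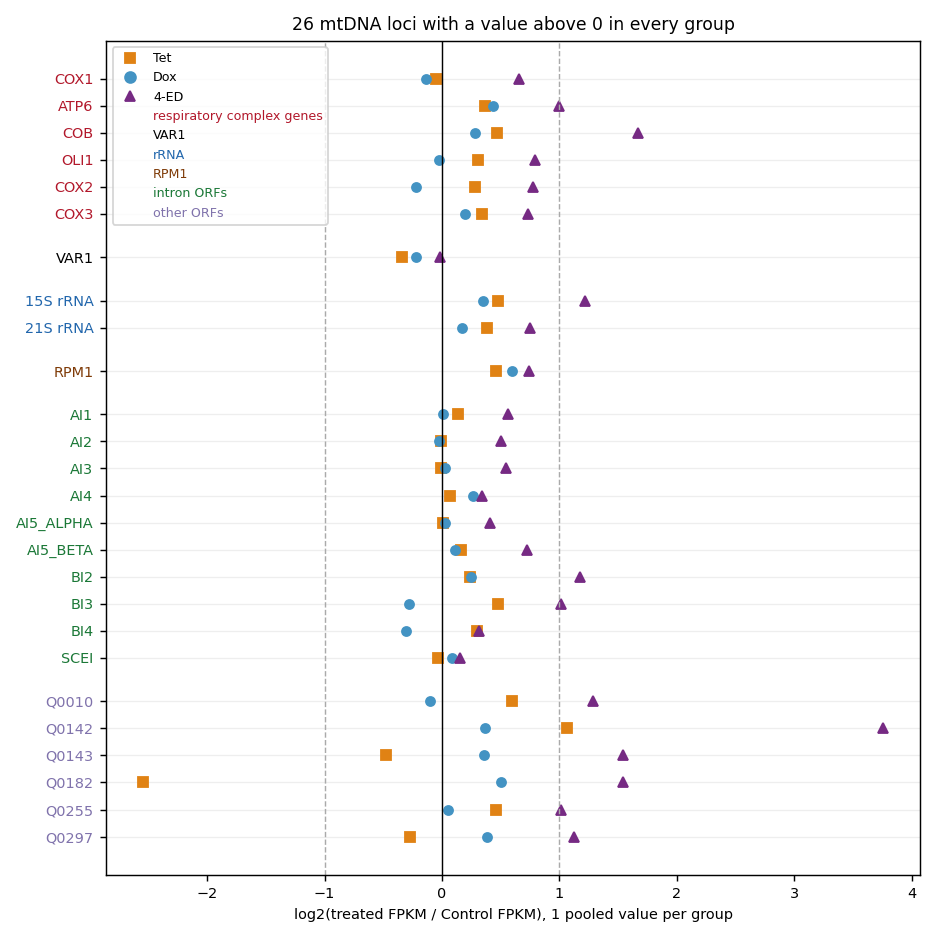
The log2 ratio of treated to Control FPKM (horizontal axis) is plotted for the 26 mtDNA loci with values above 0 in every group, with squares for Tet, circles for Dox and triangles for 4-ED and dashed lines at a 2-fold difference. The 4-ED triangles lie right of 0 for 25 of 26 loci, while VAR1 sits at −0.02.

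The levels of these loci spread widely, and OLI1 and SCEI held most of the summed FPKM. OLI1, the proteolipid subunit c that forms the rotor ring of ATP synthase, had 2149 FPKM with Tet, 1727 with Dox and 2995 with 4-ED, against 1734, 1762 and 1724 FPKM in Control in the tables of Tet, Dox and 4-ED. It was thus 1.74-fold higher with 4-ED and 1.24-fold with Tet, and 0.98 of Control with Dox. Its coding sequence, 231 bases at chrM:46723-46953 (R64, plus strand), is 66.7% A and T, whereas the whole mtDNA is 82.9% A and T. It is given here with its start and stop codons in capitals, since this 1 gene supplied the largest FPKM of the mtDNA in every group.
OLI1: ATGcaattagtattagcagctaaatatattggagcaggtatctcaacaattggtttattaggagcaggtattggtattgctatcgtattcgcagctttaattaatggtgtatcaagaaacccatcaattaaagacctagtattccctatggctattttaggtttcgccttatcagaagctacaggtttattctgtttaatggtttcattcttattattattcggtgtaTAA

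The 2 loci OLI1 and SCEI made up 79.6% of the FPKM summed over mtDNA in Control. FPKM is scaled for length, so this is not a share of the reads. The sum over all mtDNA rows was 4497 FPKM with Tet against 4032 in its Control, 4239 with Dox against 4097, and 6107 with 4-ED against 4007. Without OLI1 and SCEI the sums were 905 with Tet against 822, 921 with Dox against 835, and 1482 with 4-ED against 817 FPKM. The higher sum with 4-ED was therefore present with and without these 2 loci. Single rows also weighed on the sums without them. Q0297 had 410 FPKM with 4-ED against 188 in Control, and 21S rRNA 298 against 177. The tRNA tS(UGA)Q2 was listed at 97.8 FPKM with 4-ED and 51.0 with Tet, against 0 in Control.

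**Figure D2:**
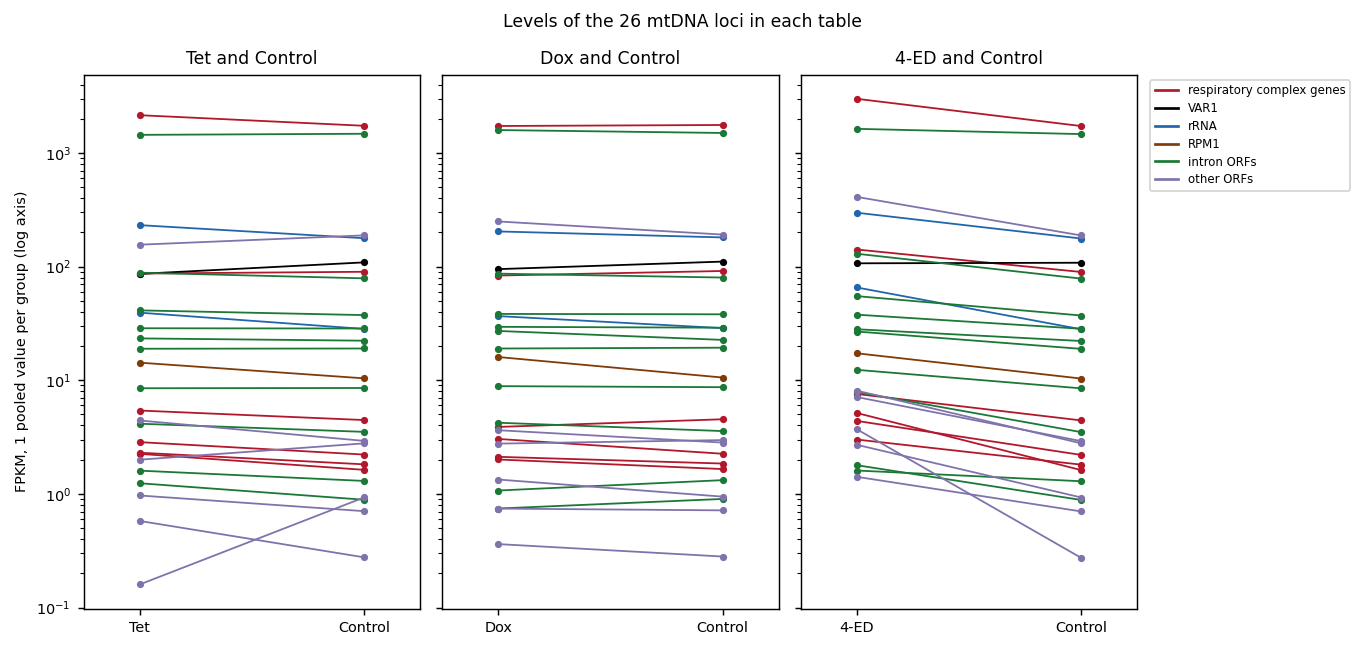
FPKM on a log axis is plotted for the 26 mtDNA loci in each treatment (left of each panel) and in Control (right), 1 line per locus coloured by class, for the tables of Tet, Dox and 4-ED. The top line is OLI1, at 2995 FPKM with 4-ED and 1724 in Control, and most lines of the 4-ED panel fall toward Control.

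The genes for cytochrome c oxidase and cytochrome b had the same direction with 4-ED and ratios close to 0 or of mixed sign with Dox. COX1, the catalytic core subunit of cytochrome c oxidase, had 86.9 FPKM with Tet, 83.5 with Dox and 141 with 4-ED, against 90.1, 91.5 and 89.6 FPKM in the Controls of these tables. Only with 4-ED did its value lie above Control, by 1.58-fold. COX2, which carries the copper centre that takes electrons from cytochrome c, had 5.42 FPKM with Tet, 3.89 with Dox and 7.57 with 4-ED, against 4.47, 4.54 and 4.43 FPKM in Control. COX3, the remaining core subunit, had 2.31 FPKM with Tet, 2.12 with Dox and 3.01 with 4-ED, against 1.82, 1.85 and 1.81 FPKM in Control. The log2 ratios of COX1, COX2 and COX3 with 4-ED, 0.66, 0.77 and 0.73, lay within a narrow band although COX1 had a far higher level per length. With Dox they were −0.13, −0.22 and 0.20.

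COB, cytochrome b of the bc1 complex, had 2.25 FPKM with Tet, 2.01 with Dox and 5.15 with 4-ED, against 1.63, 1.65 and 1.62 FPKM in Control. Its ratio with 4-ED, 3.18-fold, was the largest among the genes for respiratory complexes and the only one of them past 2-fold. ATP6, the subunit of ATP synthase that lines the proton path with the OLI1 ring, had 2.86 FPKM with Tet, 3.05 with Dox and 4.39 with 4-ED, against 2.22, 2.26 and 2.20 FPKM in Control, and its 1.99-fold ratio with 4-ED lay just under 2-fold. ATP8, a short membrane subunit of the same enzyme, was listed at 2.00 FPKM with Tet and at 0 in every other group and in all Controls. COX1, ATP8 and ATP6 are transcribed on 1 precursor, and in the Control of the 4-ED table COX1 had 89.6 FPKM and ATP6 2.20. ATP8 is only 147 bases long, and 20.4% of nuclear loci of 100 to 200 bp were also listed at 0 in both groups of that table, so its 0 can be a failed estimate.

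Over the 6 respiratory genes with a ratio, the median log2 ratio was 0.32 with Tet (5 of 6 higher), 0.08 with Dox (3 of 6 higher) and 0.78 with 4-ED (6 of 6 higher, all 6 past 1.5-fold). All but OLI1 and COX1 lay under 10 FPKM, and over OLI1 and COX1 alone the Dox median was −0.081.

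VAR1, the protein of the small mitochondrial ribosomal subunit that is encoded on mtDNA, departed from this order. It had 86.3 FPKM with Tet, 95.03 with Dox and 107 with 4-ED, against 109, 111 and 108 FPKM in Control. The values with Tet and Dox lay below Control, with log2 ratios of −0.34 and −0.22, and with 4-ED the ratio was −0.02. VAR1 is cut from the same precursor as OLI1 and tS(UGA)Q2, which had ratios or values above Control with 4-ED. Its coding sequence is the most skewed of the protein genes named here, with 89.6% A and T, and 50.4% A.

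The rRNAs were higher than Control with each drug. The 15S rRNA of the small ribosomal subunit had 39.3 FPKM with Tet, 36.7 with Dox and 65.5 with 4-ED, against 28.3, 28.8 and 28.1 FPKM in Control. It was 2.33-fold higher with 4-ED, and its log2 ratios were 0.48 with Tet and 0.35 with Dox. The 21S rRNA of the large subunit had 232 FPKM with Tet, 204 with Dox and 298 with 4-ED, against 178, 181 and 177 FPKM in Control, with log2 ratios of 0.38, 0.18 and 0.75. Both rRNAs lie next to the promoter motifs shown above, and neither is an mRNA, so their level in libraries selected for mRNA is the part that passed the selection.

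SCEI, the homing endonuclease encoded in the intron of 21S rRNA, lies in the same merged span and was closer to Control. It had 1443 FPKM with Tet, 1591 with Dox and 1630 with 4-ED, against 1475, 1499 and 1465 FPKM in Control, and its log2 ratios were −0.03, 0.09 and 0.15. SCEI was thus above its host in every group by level per length, while its ratio with 4-ED was the lowest of the intron ORFs. How Cuffdiff divided the reads between overlapping rows is not given, so levels of rows in 1 span are uncertain.

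RPM1, the RNA component of mitochondrial RNase P, which cuts the 5′ ends of tRNAs, had 14.3 FPKM with Tet, 16.0 with Dox and 17.3 with 4-ED, against 10.4, 10.6 and 10.3 FPKM in Control. It was the only mtDNA locus at least 1.5-fold higher with Dox, 1.52-fold, and its log2 ratios with Tet and 4-ED were 0.46 and 0.74. The ORF Q0297, which overlaps it at chrM:85295-85777, had 156 FPKM with Tet, 250 with Dox and 410 with 4-ED, against 188, 191 and 188 FPKM in Control. It was lower than Control with Tet while RPM1 was higher, and reads of the pair cannot be told apart.

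The 24 tRNA rows gave almost no values, and 23 were listed at 0 in every group. The tRNA tS(UGA)Q2, for serine, was listed at 51.0 FPKM with Tet, 0 with Dox and 97.8 with 4-ED, and at 0 in every Control, so no ratio can be given. Its gene, 90 bases at chrM:48201-48290 (R64, plus strand), is shown as the 1 mitochondrial tRNA with a value, with no part marked.
tS(UGA)Q2: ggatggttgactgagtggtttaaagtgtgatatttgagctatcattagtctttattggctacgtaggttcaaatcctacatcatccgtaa
Nuclear tRNAs were also mostly listed at 0 in both groups (94.1% of 273 in the Tet table, 93.8% in the Dox table and 93.4% in the 4-ED table), so a value of 0 for so short a locus can be a failed estimate and says little of its RNA.

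The 10 intron ORF rows were spread over the introns of COX1 (AI1, AI2, AI3, AI4, AI5_ALPHA and AI5_BETA), COB (BI2, BI3 and BI4) and 21S rRNA (SCEI). Such ORFs encode reverse transcriptases, maturases that help their own intron to splice, and homing endonucleases, and most are translated in frame with the exon before them, so that their rows share exons with COX1 or COB. Their median log2 ratio was 0.10 with Tet (7 of 10 higher), 0.03 with Dox (7 of 10 higher) and 0.52 with 4-ED (10 of 10 higher).

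In the COB span the rows differed with 4-ED. BI2, the maturase of the COB intron that bears its name, had 4.15 FPKM with Tet, 4.23 with Dox and 7.88 with 4-ED, against 3.52, 3.57 and 3.50 FPKM in Control, and was 2.26-fold higher with 4-ED, the largest ratio among intron ORFs. BI3, another COB intron maturase, had 1.24 FPKM with Tet, 0.744 with Dox and 1.79 with 4-ED, against 0.889, 0.903 and 0.884 FPKM in Control, and was 2.02-fold higher with 4-ED. With a pseudocount of 1 FPKM neither BI2 nor BI3 was past 2-fold with 4-ED. BI4, a maturase needed for splicing of introns in both COB and COX1, had 1.60 FPKM with Tet, 1.07 with Dox and 1.61 with 4-ED, against 1.30, 1.32 and 1.29 FPKM in Control. Its log2 ratio with Dox, −0.30, was the lowest of the intron ORFs with that drug, and its ratio of 0.31 with 4-ED lay far below the 1.67 of COB itself.

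In the COX1 span the 6 intron ORF rows were nearer to each other. AI4, whose protein is a DNA endonuclease with a latent maturase activity, had the highest ratio of the intron ORFs with Dox, 27.2 FPKM with Dox against 22.7 in Control, a log2 ratio of 0.26, and it had 28.1 FPKM with 4-ED against 22.2 in Control, a ratio of 0.34. AI5_BETA, chosen after its values were seen as the highest of the 6 with 4-ED, had 130 FPKM with 4-ED against 78.4 in Control, a log2 ratio of 0.73. The ratios with Tet and Dox over these rows were all within 0.3 of 0 on the log2 scale.

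The 10 other ORFs, which include Q0255, a maturase-like ORF by its RefSeq entry, and 9 that have no RefSeq entry, had low levels except for Q0297. Of the 10, 6 had a ratio. All 6 were more than 2-fold higher with 4-ED, but Q0182 and Q0255 were not with a pseudocount of 1 FPKM. The median log2 ratio of the 6 with 4-ED was 1.41 without a pseudocount. The medians were 0.09 with Tet (3 of 6 higher, and −0.27 over loci with a mean of at least 1 FPKM) and 0.36 with Dox (5 of 6 higher). Q0142 had 0.578 FPKM with Tet, 0.362 with Dox and 3.70 with 4-ED, against 0.277, 0.281 and 0.273 FPKM in Control, 13.6-fold higher with 4-ED and 2.09-fold with Tet. Q0182, in a span shared with the tRNA tL(UAA)Q, had 0.160 FPKM with Tet, 1.34 with Dox and 2.70 with 4-ED, against 0.931, 0.946 and 0.930 FPKM in Control, and with Tet it was the only mtDNA locus more than 2-fold lower, at a log2 ratio of −2.54. All these Control values were below 1 FPKM, and with a pseudocount of 1 FPKM the log2 ratio with Tet was 0.31 for Q0142 and −0.74 for Q0182, so that neither was past 2-fold. With 4-ED it was then 1.89 for Q0142 and 0.94 for Q0182. Cuffdiff did not test Q0142 in the Tet table.

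Q0143 had 2.00 FPKM with Tet, 3.64 with Dox and 8.10 with 4-ED, against 2.78, 2.83 and 2.79 FPKM in Control, and was 2.91-fold higher with 4-ED. Q0010 had 4.43 FPKM with Tet, 2.77 with Dox and 7.12 with 4-ED, against 2.93, 2.98 and 2.91 FPKM in Control, and was 2.44-fold higher with 4-ED. Q0255, which overlaps the end of COX2, had 0.969 FPKM with Tet, 0.743 with Dox and 1.41 with 4-ED, against 0.705, 0.717 and 0.701 FPKM in Control. Q0017 was listed at 0.831 FPKM with Dox and at 0 elsewhere, and Q0032, Q0092 and Q0144 were listed at 0 throughout.

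The mtDNA loci were also set beside nuclear loci of a like level, taken from a treatment that does not enter the ratio, namely Dox for the ratios of Tet and 4-ED and Tet for those of Dox. Between 1 and 10 FPKM, 10 mtDNA loci had a median log2 ratio of 1.08 with 4-ED and 5 of them were 2-fold higher, whereas 601 nuclear loci had a median of 0.03 and 6.16% were 2-fold higher. Between 10 and 100 FPKM the medians with 4-ED were 0.57 over 9 mtDNA loci and −0.04 over 3706 nuclear loci. The loci above 100 FPKM were few, and their medians with 4-ED were 0.94 over the 2 mtDNA loci up to 1000 FPKM and 0.48 over the 2 above it, against 0.03 and 0.09 over nuclear loci.

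With Tet the medians were 0.29 over 10 mtDNA loci and 0.12 over 603 nuclear loci between 1 and 10 FPKM, and 0.07 and 0.05 between 10 and 100 FPKM. Between 100 and 1000 FPKM the median with Tet was 0.05 over 2 mtDNA loci, below the nuclear 0.11. With Dox the medians were 0.11 over 10 mtDNA loci and 0.05 over 606 nuclear loci between 1 and 10 FPKM, and 0.03 and −0.02 between 10 and 100 FPKM.

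**Figure D3:**
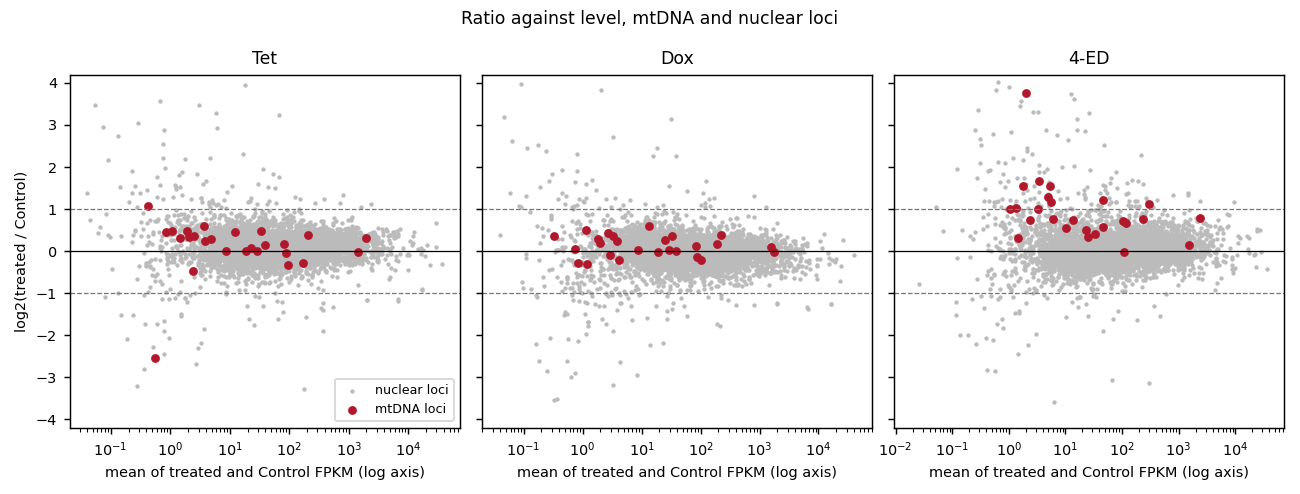
The log2 ratio of treated to Control FPKM (vertical axis, shown up to 4.2 in size) is plotted against the mean FPKM of both groups on a log axis, with mtDNA loci in red, nuclear loci in grey and dashed lines at a 2-fold difference, and 5, 3 and 10 nuclear loci lie off the axis for Tet, Dox and 4-ED. The red points lie above 0 for 18 of 26 loci with Tet, 18 of 26 with Dox and 25 of 26 with 4-ED.

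4-ED and Dox are epimers, which differ in the configuration at the carbon that carries the dimethylamino group, and they were given at the same dose. All 3 pairs of drugs were set side by side. The log2 ratio with 4-ED was higher than that with Dox for 26 of 26 mtDNA loci, with a median difference of 0.68, and for 55.8% of nuclear loci, with a median difference of 0.03. The difference was at least 0.5 for 21 of the 26 mtDNA loci, against 6.67% of nuclear loci. It was smallest for SCEI, 0.07, and AI4, 0.08, and largest for Q0142, 3.40, followed by Q0010 and COB, each 1.39. Between 4-ED and Tet, which also differ in structure, the ratio with 4-ED was likewise higher for 26 of 26 mtDNA loci, against 33.6% of nuclear loci. The difference was at least 0.5 for 15 of the 26 mtDNA loci, against 3.61% of nuclear loci. Its median was 0.54 over mtDNA loci and −0.08 over nuclear loci. Between Tet and Dox the median difference was 0.07 over mtDNA loci, 15 of 26 above 0, and 0.11 over nuclear loci, 75.8% above 0. With 1 pooled value per group these differences have no interval and were not tested, and the tables were scaled separately.

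Nuclear genes for subunits of the same complexes had medians closer to Control than the mtDNA respiratory genes with 4-ED, but not throughout with Tet. The 9 nuclear subunits of complex III had median log2 ratios of 0.26 for Tet, −0.04 for Dox and 0.19 for 4-ED, and their extremes with 4-ED were QCR7 at 0.60 and QCR2 at −0.05. The 9 of complex IV had medians of 0.37, 0.06 and 0.31, and COX7 with 4-ED, 9119 FPKM against 4978 in Control, was the highest. The lowest of them was COX5B in all 3 tables, the isoform of subunit COX5 used at low oxygen, at −0.41 for Tet, −0.59 for Dox and −0.01 for 4-ED on the log2 scale. COX5B with Dox was the only gene of the 3 lists 1.5-fold lower, beside 3.67% of all loci with Dox. The 14 nuclear subunits of ATP synthase had medians of 0.27, 0.02 and 0.17, with ATP19 highest in each table, at 0.52, 0.25 and 0.91. Across the 3 lists 0 genes were 2-fold different with any drug, beside 0.765% to 2.28% of all loci in a single direction. At 1.5-fold, 1 gene of complex III, 3 of complex IV and 2 of ATP synthase were higher with 4-ED, beside 5.97% of all loci. With Tet and Dox 0 were, beside 4.44% and 2.44% of all loci. With Tet the nuclear medians (0.26, 0.37 and 0.27) and that of the mtDNA respiratory genes, 0.32, were close, whereas with 4-ED the mtDNA median was 0.78.

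The nuclear genes that act on mtDNA and its RNA had medians near 0. The list of 12 for maintenance and transcription of mtDNA and turnover of its RNA had median log2 ratios of 0.02 for Tet, −0.09 for Dox and −0.11 for 4-ED. Its highest member in each table was MGM101, a protein of mtDNA recombination, with 176 FPKM with 4-ED against 131 in Control. Its lowest was SUV3, the helicase of the mitochondrial degradosome, with Tet and 4-ED, and the transcription factor MTF1 with Dox, at a log2 ratio of −0.36. The 12 genes for splicing and processing had medians of 0.07, 0.02 and −0.07, with the splicing factor MRS1 highest with Tet and Dox, the RNase P protein RPM2 highest with 4-ED, the RNA helicase MSS116 lowest with Tet and Dox and the COB mRNA factor CBP1 lowest with 4-ED. The 18 translational activators had medians of 0.01, 0.00 and −0.01, and their extremes lay between MAM33 with Tet at 0.50 and CBP1 with 4-ED at −0.26. None of these genes was 1.5-fold different with any drug, beside 1.93% to 5.97% of all loci in a single direction.

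The mitochondrial ribosomal proteins, partners of VAR1 and of both rRNAs, had medians near 0 with Dox and 4-ED and somewhat above it with Tet. The 33 of the small subunit had median log2 ratios of 0.19 for Tet, 0.03 for Dox and 0.04 for 4-ED, with RSM27 highest with Dox and 4-ED and EHD3 highest with Tet. RSM26 was the lowest with Dox and 4-ED and MRPS35 with Tet. The 46 of the large subunit had medians of 0.18, 0.03 and 0.04, with MRPL8 highest with Tet and Dox, MRPL44 highest with 4-ED, MRX14 lowest with Tet and Dox and MRPL23 lowest with 4-ED. Of both lists, only RSM27 with 4-ED was 1.5-fold higher, at 496 FPKM against 319 in Control. Over all loci 5.97% were 1.5-fold higher with 4-ED, 4.44% with Tet and 2.44% with Dox. VAR1, on mtDNA, was lower than Control with Tet (−0.34), where 31 of the 33 nuclear proteins of its subunit were higher.

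Other RNAs that carry no long poly(A) tail when mature were examined in the same libraries, a list chosen after the mtDNA values were seen. Of 81 nuclear snR loci, which hold small nuclear and nucleolar RNAs, 74 had a ratio with Tet, 77 with Dox and 75 with 4-ED. Their median log2 ratio was 0.10 for Tet, 0.00 for Dox and 0.48 for 4-ED. With 4-ED, 17 of the 75 were 2-fold higher, beside 2.28% of all loci, and 3 were 2-fold lower, beside 0.765%. With Tet, 3 of the 74 were 2-fold higher and 4 lower, beside 1.29% and 0.78% of all loci. With Dox, 4 of the 77 were 2-fold higher and 7 lower, beside 0.93% and 1.2%. Single loci were spread widely, with snR6 at 2.32 with Tet and 2.45 with Dox and snR49 at 2.87 with 4-ED, and snR56 at −3.29 with Tet and −1.78 with Dox and snR72 at −3.06 with 4-ED. Short nuclear loci, from which the snR loci were not left out, were also higher with 4-ED. The median was 0.27 for spans under 100 bp, 0.31 from 100 to 200 bp and 0.33 from 200 to 300 bp. It was 0.14 from 300 to 500 bp, 0.01 from 500 to 1000 bp and −0.04 from 1000 bp. Of the 276 nuclear loci under 100 bp, 220 were listed at 0 in both groups with 4-ED. The same medians with Dox lay between −0.04 and 0.02, and with Tet between 0.06 and 0.18. By their medians, the snR loci and the short nuclear loci, which are not separate groups, thus stood higher in the 4-ED table, as the mtDNA loci did. The mtDNA loci were not all short. By exon length COB has 1158 bases, COX1 1605 and 21S rRNA 3296, whereas OLI1 has 231 and RPM1 483. The part of mRNA selection or RNA length in the mtDNA result was not tested.

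**Figure D4:**
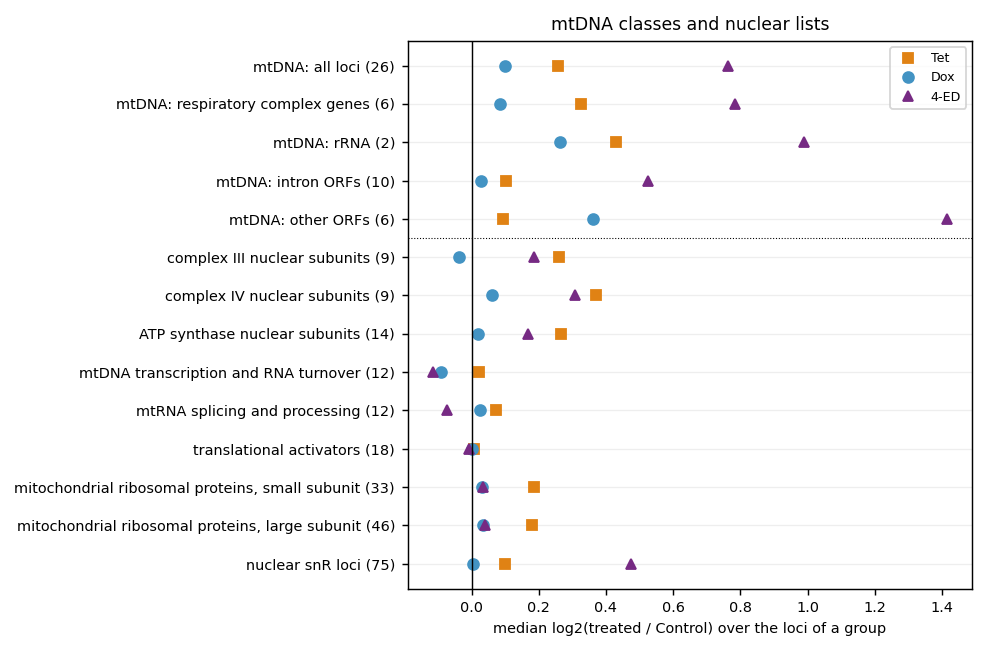
The median log2 ratio of treated to Control FPKM (horizontal axis) is plotted for mtDNA classes (above the dotted line) and nuclear lists (below it), with squares for Tet, circles for Dox, triangles for 4-ED and the number of loci with a ratio in the 4-ED table in brackets. The 4-ED median is 0.76 over all mtDNA loci and 0.48 over nuclear snR loci, and at most 0.31 for the nuclear protein lists.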

How the data were processed

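Total gene expression was measured in 12 cultures, grouped by the treatment in their labels. Reads were aligned by the authors with Bowtie2 (Ensembl R64-1-1) and quantified in Cuffdiff with the matching annotation, and versions and strand use are not given in the sources used here. Libraries were selected for mRNA by the study's methods, although the labels state total RNA. The authors deposited 3 tables, 1 for each treatment, with FPKM values pooled over the 3 cultures of a group and scaled within each table. The deposited fold changes, test statistics, p-values and q-values are the authors' own comparison and were not used.

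Loci on mtDNA were taken by position, and each ratio is log2 of treated over Control FPKM where both were above 0, without a pseudocount. With 1 pooled value per group no test was run. A locus was counted when past 2-fold (or 1.5-fold), beside the share over all loci with a ratio (6669 with Tet, 6667 with Dox and 6667 with 4-ED). 1 row without a gene was left out. Controls of the 3 tables are 1 set of libraries, and their values for mtDNA loci differed by 0.984 to 1.03 fold between tables. Named loci are all respiratory, VAR1, rRNA and RPM1 loci, the 2-fold, highest and lowest of the other classes in each table, and the highest and lowest of each nuclear list. Members and lists were chosen with earlier results of these data known. The snR list, the ranges of level, placed by a treatment outside the ratio, and the differences between drugs were chosen after the values were seen. Sequences were read from the RefSeq R64 assembly, where 46 of the 55 loci have an entry. Alternatives were a pseudocount of 1 FPKM, a mean of at least 1 or 10 FPKM, 1.5-fold, centring on the nuclear median, averaged Controls, rows that Cuffdiff marked OK, and 1 row per merged span. The code for ratios and counts was run on Control values multiplied by known folds, without noise, which checks the arithmetic only. Python 3.11.15, numpy 2.4.6, pandas 2.3.3, Biopython and matplotlib 3.10.9 were used.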

Additional observations from a re-analysis of the deposited data

How the results depend on the processing

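No paired analysis was possible because the deposited tables hold 1 pooled value per group, and for the same reason no culture could be left out in turn. No ratio or count reversed its direction for a called locus under the alternatives run. Averaging the Controls of the 3 tables moved no value by 0.1 or more on the log2 scale. These Controls are 1 set of libraries scaled again, so that setting could hardly move a value and says nothing of spread between cultures. With 4-ED the median over mtDNA loci was 0.61 with a mean of at least 10 FPKM and 1.06 with 1 row per merged span, and 2 loci in place of 10 were 2-fold higher at that minimum of 10 FPKM. Over all 26 loci, 18 were 1.5-fold higher. With the pseudocount, BI2, BI3, Q0182 and Q0255 were not past 2-fold with 4-ED, while tS(UGA)Q2, listed at 0 in Control, came to be counted. The 4-ED medians of classes were 1.09 (other ORFs, pseudocount), 1.13 (other ORFs, at least 10 FPKM), and with 1 row per span 1.54 (other ORFs), 1.22 (rRNA) and 0.66 (intron ORFs). In each span the row with the highest Control value was kept. The rRNA value with 1 row per span is thus 15S rRNA alone, and the intron ORF value rests on BI2 and SCEI only, with each drug. Likewise, other ORFs with at least 10 FPKM are Q0297 alone with each drug. With Tet, the 1 locus 2-fold higher, Q0142, was not past 2-fold with the pseudocount, at a log2 ratio of 0.31. That setting counted 2 other loci, ATP8 and tS(UGA)Q2, which were listed at 0 in Control and had no ratio otherwise. At 1.5-fold 2 loci were higher. With a mean of at least 1 or 10 FPKM, after centring or with rows marked OK, 0 were 2-fold higher. The 1 locus 2-fold lower became 0 with the pseudocount and with a mean of at least 1 or 10 FPKM. With Tet the median was 0.067 with at least 10 FPKM, that of respiratory genes 0.13 with at least 10 FPKM, and that of other ORFs −0.032 with the pseudocount and −0.27 with at least 1 or 10 FPKM, rows marked OK or 1 row per span, against 0.09. With Dox, 1 locus was higher at 1.5-fold in place of 0, the median was 0.22 with 1 row per span, that of intron ORFs 0.16 and that of respiratory genes −0.029 with 1 row per span and −0.081 with at least 10 FPKM, against 0.08. The medians of other ORFs with Tet and of respiratory genes with Dox thus took the other sign under these settings. The minimum levels, the rows marked OK and 1 row per span admit fewer loci, and the cause was otherwise not tested. The pseudocount moved 27 of 78 single-locus ratios by 0.1 or more, since it pulls ratios of loci near 1 FPKM toward 0.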
